A study of Rattus norvegicus with 8 samples.

Results

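The ErbB receptors and their EGF-family ligands were examined in A2B5/OTMP+ cells sorted from rat brain, which the series title calls oligodendrocytes. Few oligodendrocyte markers passed the test, as given below. The genes were the receptors Egfr, Erbb2, Erbb3 and Erbb4, the neuregulin gene Nrg1 and the EGF-type ligand genes Egf, Tgfa, Hbegf, Btc and Areg, chosen as a signalling family and taken through every probe set annotated to exactly 1 of them. All 10 genes had a probe set, out of 13810 genes named by a single-gene probe set. There were 20 such probe sets among 31142 tested, 18 on the array type called chip A and 2 on chip B. No probe set named a member together with a second gene.

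Cells positive for OTMP and for A2B5, a surface ganglioside marker of glial progenitors, were isolated by flow cytometry from the brain at postnatal day 7, and the series title calls them perineuronal oligodendrocytes. Total RNA of 4 biological replicates was hybridized to both array types, giving the groups A2B5/OTMP+ chip A and A2B5/OTMP+ chip B of 4 arrays each. No strain, sex, number of animals or treatment was labelled, and no second cell population or control group was given. The deposited value of a probe set was a linear ratio to a reference that no label names. It thus gives neither brightness nor presence of a transcript, and ratios of different genes do not rank their expression. Whether the reference was independent of these arrays is not labelled either. Some ratios were exactly 1, such as that of Nrg1 1369783_a_at in replicate 4.

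ErbB receptors are cell-surface tyrosine kinases that signal as pairs. Egfr binds the EGF-type ligands, Erbb3 and Erbb4 bind neuregulins, Erbb4 also binds some of the EGF-type ligands, Erbb2 has no known ligand of its own and serves as a partner, and Erbb3 has little kinase activity and depends on its partner to signal. The ligands are made as membrane proteins that proteases shed. In the glial lineage EGF receptor signalling is known for the growth of progenitors, and neuregulin signalling through ErbB receptors for the survival and maturation of oligodendrocytes and Schwann cells.

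Egfr, on 2 of its 3 probe sets, and Erbb2 stood above the reference, and the neuregulin-binding receptors Erbb3 and Erbb4 below it. The Erbb4 result held in 5 of 10 alternative settings, given below. Low, even ratios like that of Erbb3 also occurred among bacterial controls, which match no rat gene. Egfr had the highest ratio of the family, at 5.64 times the reference on 1 probe set and 2.64 times on another. Erbb2 was at 2.10 times and the ligand gene Egf at 2.15 times. Erbb3 was at 0.561, Areg at 0.534 and 3 of the 8 Nrg1 probe sets between 0.402 and 0.478 of the reference, and Erbb4 was at 0.718. These are geometric means over the 4 arrays of a chip. Each probe set was tested against a ratio of 1 with limma, two-sided, in 1 fit over all probe sets of its chip with Benjamini-Hochberg adjustment at 0.05.

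In all, 4 member probe sets of 3 genes were higher than 1, 6 probe sets of 4 genes were lower and 10 did not pass. On chip A 3 of the 18 were higher, against 9.21% of all 15866 tested probe sets, and 6 of the 18 were lower, against 30.1% of all. The median log2 ratio of the 18 was -0.09, against -0.11 over all probe sets of the chip. In its median and its share of lower calls the family lay close to the whole chip, and the results concern single genes. On chip B the background was 5.08% higher and 27.1% lower, with 1 of the 2 member probe sets higher.

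**Figure D1:**
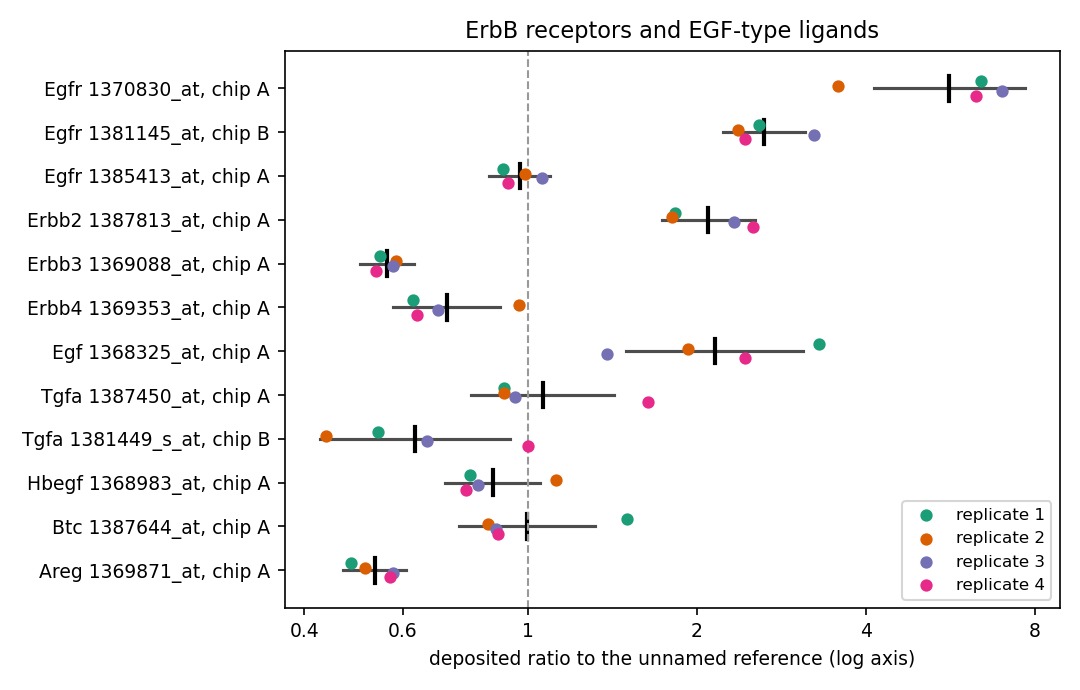
Deposited ratios of the 12 probe sets of ErbB receptors and EGF-type ligands on a log axis, with 1 coloured point per replicate, the geometric mean as a vertical bar and its 95% limma interval as a horizontal line. Every point of Egfr 1370830_at, Egfr 1381145_at, Erbb2 and Egf lies right of the dashed line at a ratio of 1, and every point of Erbb3, Erbb4 and Areg left of it.

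Among the receptors, Egfr was read by 3 probe sets, each designed from a different sequence record. Probe set 1370830_at had ratios of 6.42, 3.58, 6.99 and 6.28 on the chip A arrays of replicates 1 to 4, so replicate 2 was the low one and still well above 1. Its mean log2 ratio was 2.49 ± 0.44 (SD, n = 4, 95% interval 2.05 to 2.94, limma adjusted p = 0.000289), which placed it 38th from the top of the 15866 probe sets of chip A. Probe set 1381145_at on chip B had ratios of 2.59, 2.37, 3.23 and 2.44 in replicates 1 to 4. Its mean log2 ratio was 1.40 ± 0.20 (SD, n = 4, 95% interval 1.16 to 1.64, limma adjusted p = 0.000391). Replicate 2 was lowest and replicate 3 highest on both of these probe sets. The remaining chip A probe set, 1385413_at, stood at 0.906, 0.991, 1.06 and 0.923, with a mean log2 ratio of -0.05 ± 0.10 and a 95% interval of -0.23 to 0.13 (limma adjusted p = 0.648). The Egfr probe sets thus disagreed by 2.54 log2 units between the highest and the lowest.

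Erbb2, the receptor without a known ligand, had ratios of 1.83, 1.80, 2.33 and 2.52 on its chip A probe set. All 4 arrays lay above 1, those of replicates 3 and 4 highest. The mean log2 ratio was 1.07 ± 0.24 (SD, n = 4, 95% interval 0.79 to 1.35, limma adjusted p = 0.0011). It lay at percentile 97.1 of chip A, and Egfr 1370830_at at percentile 99.8.

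Erbb3, the neuregulin receptor with little kinase activity, had ratios of 0.547, 0.584, 0.577 and 0.538. The 4 arrays were close together and all below 1, with a mean log2 ratio of -0.83 ± 0.06 (SD, n = 4, 95% interval -0.99 to -0.67, limma adjusted p = 0.000364). Erbb4, the neuregulin receptor with a full kinase, had 0.626, 0.965, 0.692 and 0.635, so replicate 2 was almost at the reference and the other arrays at similar lower values. Its mean log2 ratio was -0.48 ± 0.29 (SD, n = 4, 95% interval -0.79 to -0.16, limma adjusted p = 0.0315). This call did not hold after each array was centred on its median (-0.36, limma adjusted p = 0.0807), nor without replicate 1 (-0.41, 0.102), replicate 3 (-0.46, 0.0944) or replicate 4 (-0.42, 0.109). Without replicate 2 it stood at -0.62 (limma adjusted p = 0.00697).

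The promoters of the genes above the reference are shown with that of Areg, a lower ligand gene, as examples with different motif matches. They do not mark a contrast between higher and lower genes, since the Erbb4 window, not printed, held 1 GC box and no TATA box, like those of Egfr and Erbb2, and had a GC content of 70.3%. The sequences are from RefSeq on GRCr8, from 250 bases before to 50 bases after the gene start, 5′ to 3′ on the gene's strand. Capitals mark matches on either strand to the GC box GGGCGG, the TATA box TATAAA and the cyclic AMP response element TGACGTCA. Egfr lies at chr14:95378376-95378675 (plus strand), Erbb2 at chr10:83907351-83907650 (plus strand), Egf at chr2:220976248-220976547 (minus strand) and Areg at chr14:17265592-17265891 (minus strand).
Egfr: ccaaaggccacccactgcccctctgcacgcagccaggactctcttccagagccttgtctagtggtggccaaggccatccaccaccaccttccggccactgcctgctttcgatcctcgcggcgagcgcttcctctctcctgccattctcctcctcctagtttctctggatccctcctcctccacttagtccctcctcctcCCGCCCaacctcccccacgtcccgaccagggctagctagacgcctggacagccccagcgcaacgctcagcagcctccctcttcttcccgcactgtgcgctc
Erbb2: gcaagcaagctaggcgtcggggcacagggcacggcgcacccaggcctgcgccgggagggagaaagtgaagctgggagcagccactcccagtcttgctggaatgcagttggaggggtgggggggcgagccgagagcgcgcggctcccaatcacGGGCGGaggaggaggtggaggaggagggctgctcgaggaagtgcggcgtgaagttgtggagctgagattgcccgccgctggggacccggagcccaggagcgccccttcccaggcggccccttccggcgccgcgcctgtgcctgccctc
Egf: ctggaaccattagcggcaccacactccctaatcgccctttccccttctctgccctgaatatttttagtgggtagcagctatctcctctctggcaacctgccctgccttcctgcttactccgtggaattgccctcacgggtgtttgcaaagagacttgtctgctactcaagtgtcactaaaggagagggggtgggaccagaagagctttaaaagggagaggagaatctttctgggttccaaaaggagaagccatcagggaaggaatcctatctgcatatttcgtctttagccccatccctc
Areg: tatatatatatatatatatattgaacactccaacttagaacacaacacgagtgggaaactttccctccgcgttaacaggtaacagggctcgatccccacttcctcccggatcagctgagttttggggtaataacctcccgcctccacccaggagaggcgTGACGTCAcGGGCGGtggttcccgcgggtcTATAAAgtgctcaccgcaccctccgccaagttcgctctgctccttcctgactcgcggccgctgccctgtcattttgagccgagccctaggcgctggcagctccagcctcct

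The Egfr window held 1 GC box, which begins 51 bases before the gene start, and the Erbb2 window 1 that begins 98 bases before it, both without a TATAAA. Their GC content was 64.3% for Egfr and 71.3% for Erbb2, against a median of 51.7% over all 33469 promoters of the table. The Egf window held none of the 3 motifs and had a GC content of 51.0%. The Areg window held all 3, with the response element beginning 91, the GC box 82 and the TATA box 61 bases before the start, and none of these matches overlapped. Of all promoters, 33.1% held a GC box, 14.2% a TATAAA and 1.83% the response element. Of the 10 genes 8 had a promoter in the table. These matches describe letters and were set against no measurement of binding.

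Among the EGF-type ligands Egf was the one above the reference. Its ratios were 3.30, 1.93, 1.38 and 2.44, with replicate 1 highest and replicate 3 lowest but above 1. The mean log2 ratio was 1.11 ± 0.53 (SD, n = 4, 95% interval 0.58 to 1.63, limma adjusted p = 0.0103). With a required fold of at least 1.5 Egf did not pass (limma adjusted p = 0.191).

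Areg, the gene of amphiregulin, had ratios of 0.485, 0.513, 0.575 and 0.569, all below 1 and close to each other, with a mean log2 ratio of -0.90 ± 0.12 (SD, n = 4, 95% interval -1.09 to -0.72, limma adjusted p = 0.000485). Btc, the gene of betacellulin, had 1.503 in replicate 1, against 0.852, 0.878 and 0.886 in the other arrays, and its mean log2 ratio was 0.00 ± 0.39 (95% interval -0.40 to 0.40, limma adjusted p = 0.995). On GRCr8 Btc and Areg are next to each other on chromosome 14, with 0 protein-coding genes between them, and the ligand genes Ereg and Epgn follow. Ereg, named here after its values were seen, had ratios of 0.545, 0.566, 0.562 and 0.532, a mean log2 ratio of -0.86 ± 0.04 (limma adjusted p = 0.000295), and Epgn had no single-gene probe set. Areg and Ereg thus lay below the reference on every array, and Btc was above it in replicate 1 alone.

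Hbegf, the gene of the heparin-binding ligand, had 0.790, 1.12, 0.817 and 0.777, above the reference in replicate 2 alone. Its mean log2 ratio was -0.21 ± 0.25 (95% interval -0.49 to 0.07, limma adjusted p = 0.206), and without replicate 2 it was -0.33 and passed (0.0395). Tgfa, the gene of transforming growth factor alpha, was read on both chips, and replicate 4 was the highest on both. The chip A probe set had 0.909, 0.908, 0.949 and 1.64 (mean log2 ratio 0.09 ± 0.42, 95% interval -0.33 to 0.51, limma adjusted p = 0.708). The chip B probe set had 0.542, 0.437, 0.663 and 1.004 (-0.67 ± 0.51, 95% interval -1.23 to -0.10, limma adjusted p = 0.0808). The chip B probe set passed as lower when replicate 4 was left out (-0.89, limma adjusted p = 0.0215). The Tgfa probe set of chip B carries the suffix of sets that may also match other transcripts.

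**Figure D2:**
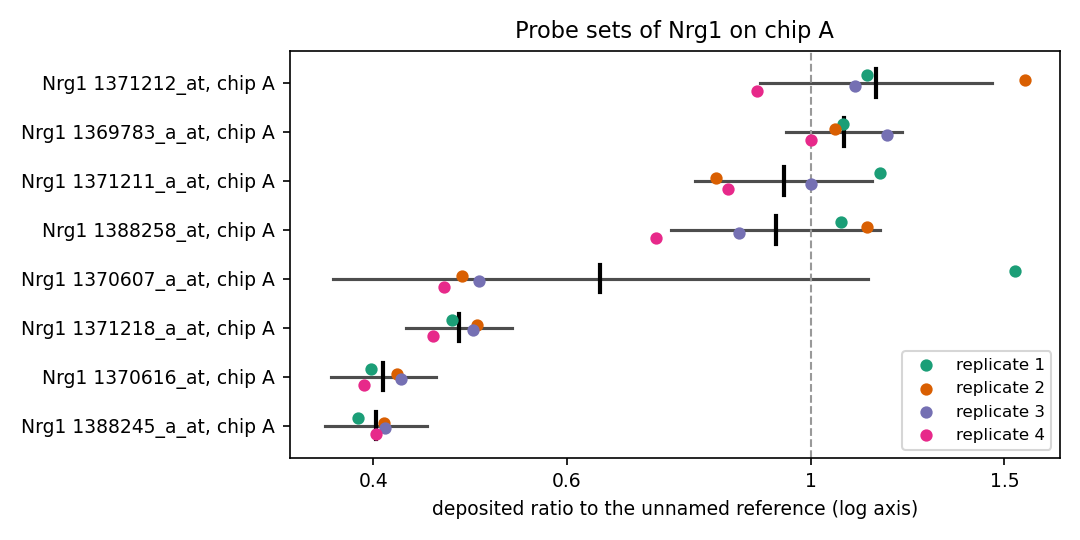
Deposited ratios of the 8 Nrg1 probe sets on a log axis, with 1 coloured point per replicate of chip A, the geometric mean as a vertical bar and its 95% limma interval as a horizontal line. The lowest 3 probe sets sit between 0.387 and 0.497 on all arrays, the upper 4 spread around 1, and 1370607_a_at has replicate 1 at 1.53 apart from the other arrays.

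Nrg1, which encodes a family of neuregulins through alternative promoters and splicing, was read by 8 chip A probe sets designed from 4 sequence records. They did not give 1 answer: 3 were lower than the reference, 5 did not pass, and the highest and lowest means were 1.51 log2 units apart. Probe set 1388245_a_at had ratios of 0.387, 0.409, 0.410 and 0.402, with a mean log2 ratio of -1.32 ± 0.04 (SD, n = 4, limma adjusted p = 0.000108). Probe set 1370616_at had 0.398, 0.420, 0.424 and 0.392, a mean of -1.29 ± 0.06 (0.000117 by limma, adjusted). Probe set 1371218_a_at had 0.472, 0.497, 0.493 and 0.453, a mean of -1.06 ± 0.06 (0.000175 by limma, adjusted). On each of these 3 the 4 arrays hardly differed.

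Of the 5 Nrg1 probe sets that did not pass, 1370607_a_at had 0.482, 0.499 and 0.464 in replicates 2 to 4, like the 3 lower ones, and 1.53 in replicate 1. Its mean log2 ratio was -0.64 ± 0.84 (limma adjusted p = 0.179), and without replicate 1 it was -1.05 and passed (0.00192). The other 4 had mean log2 ratios of 0.20 ± 0.33 for 1371212_at, 0.10 ± 0.10 for 1369783_a_at, -0.08 ± 0.23 for 1371211_a_at and -0.11 ± 0.29 for 1388258_at, with limma adjusted p from 0.313 to 0.585. Of these 1369783_a_at passed as higher after centring (0.22, limma adjusted p = 0.0334). Probe sets designed from the same record differed: 1371212_at, 1371211_a_at and 1388245_a_at share one and stood at 0.20, -0.08 and -1.32. Which neuregulin forms each probe set matches was not analysed here.

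**Figure D3:**
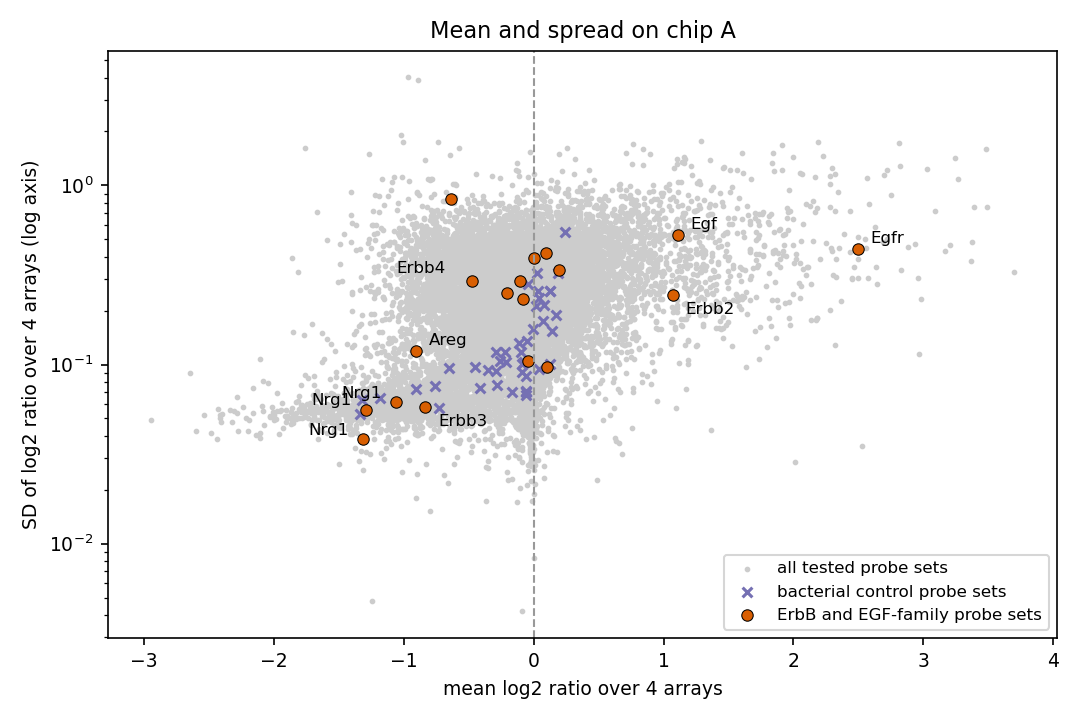
Mean log2 ratio over the 4 arrays of chip A against its SD on a log axis, for all tested probe sets in grey, 43 bacterial control probe sets as crosses and the 18 family probe sets as orange points, with the called ones named. Egfr, Egf and Erbb2 lie at the right with SDs from 0.24 to 0.53, and Erbb3 and the 3 lower Nrg1 probe sets lie at the lower left beside the crosses, with SDs from 0.04 to 0.06.

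The lower calls other than Erbb4 shared a low, even pattern. On these 5 probe sets every ratio lay between 0.387 and 0.584 and the SD of log2 ratios between 0.04 and 0.12, against a median SD of 0.21 over the chip. Chip A held 1142 of its 15866 probe sets with a mean and an SD no greater than the largest of these 5. Bacterial control probe sets, which match no rat gene, were lower than 1 by the same test in 14 of 43 cases (32.6%), and the lowest of them ranged from 0.381 to 0.411 over the 4 arrays. The Nrg1 probe sets 1388245_a_at and 1370616_at lay at or near that range. A ratio of this kind does not by itself show that the transcript was less abundant. On chip B 14 of 43 bacterial controls were lower too, the lowest from 0.385 to 0.411. The limit holds as well for low, even ratios among other pathway genes below, such as Ereg, Nrg2, Dusp4, Shc2 and Grb7. Of these the lowest chip B probe sets of Nrg2 and Shc2 lay under the range of the lowest chip B control. On each chip bacterial controls were higher than 1 in 0 of 43 cases in limma (0 also at an unadjusted p under 0.05).

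By root mean square difference of the log2 ratios over the 4 arrays, among 12782 other single-gene probe sets of chip A, those most like Egfr 1370830_at were of Ntm (0.14), Acsl6 (0.15) and Nrcam (0.22). Ntm encodes a neuronal adhesion molecule, Acsl6 an acyl-CoA synthetase and Nrcam a cell adhesion molecule. Those most like Nrg1 1388245_a_at were of Oprm1 (0.012), Gabbr2 (0.020) and Atp2a3 (0.026). Oprm1 encodes an opioid receptor, Gabbr2 a GABA-B receptor subunit and Atp2a3 a calcium pump. The distances to the Nrg1 probe set were smaller than those to Egfr.

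The arrays of a chip correlated with r from 0.716 to 0.792 over chip A and from 0.710 to 0.786 over chip B. Beside the marker counts below, 9.21% of all probe sets of chip A and 5.08% of chip B were higher, and 30.1% and 27.1% lower. Few markers of the labelled cells passed the test. Of 7 probe sets for 6 oligodendrocyte lineage genes 1 was higher (Pdgfra, the PDGF receptor gene of precursors) and 1 lower (a probe set of Olig2). Some varied widely between arrays, such as Sox10 from 0.401 to 2.57. Of 10 for myelin genes 0 were higher or lower in limma (1 higher at an unadjusted p under 0.05). Most astrocyte markers were above the reference, with 9 of 13 probe sets higher, covering all 6 genes, and 2 lower. Neuronal markers had 5 of 10 probe sets higher, covering 4 of 6 genes, and 3 lower. The lower ones, of Gad1, Tubb3 and Syt1, had even ratios below 1 (SD 0.06, 0.06 and 0.03), with the limit given above. Gad1 and Tubb3 each had a higher probe set too. The lower astrocyte probe sets, of Gja1 and Slc1a3, were also even (SD 0.05 and 0.07). Microglial markers had 0 of 8 higher and 1 lower in limma, and endothelial markers 0 of 9 higher or lower, with 0 microglial and 0 endothelial ones higher, and 4 microglial and 0 endothelial ones lower, at an unadjusted p under 0.05. The mean log2 ratio of lineage markers on chip A was 0.24, -0.58, 0.79 and 0.75 in replicates 1 to 4, lowest in replicate 2 as for Egfr. Myelin markers, at 0.19, 0.00, 0.04 and 0.09, and microglial markers, at -0.36, -0.65, -0.04 and -0.62, were lowest in replicate 2 too, so this order was not particular to lineage markers. The mean of endothelial markers was -0.56, 0.49, 0.24 and 0.10, highest in replicate 2. That of astrocyte markers was 1.52, 0.88, 1.40 and 0.84, and that of neuronal markers 0.85, 0.43, 0.41 and 0.52, both highest in replicate 1. With only 4 arrays, sharing the highest or lowest one does not tie a member to a cell type. The part of these cells in the ErbB results was not tested, and in bulk RNA fewer cells of a type and less RNA per cell cannot be told apart.

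**Figure D4:**
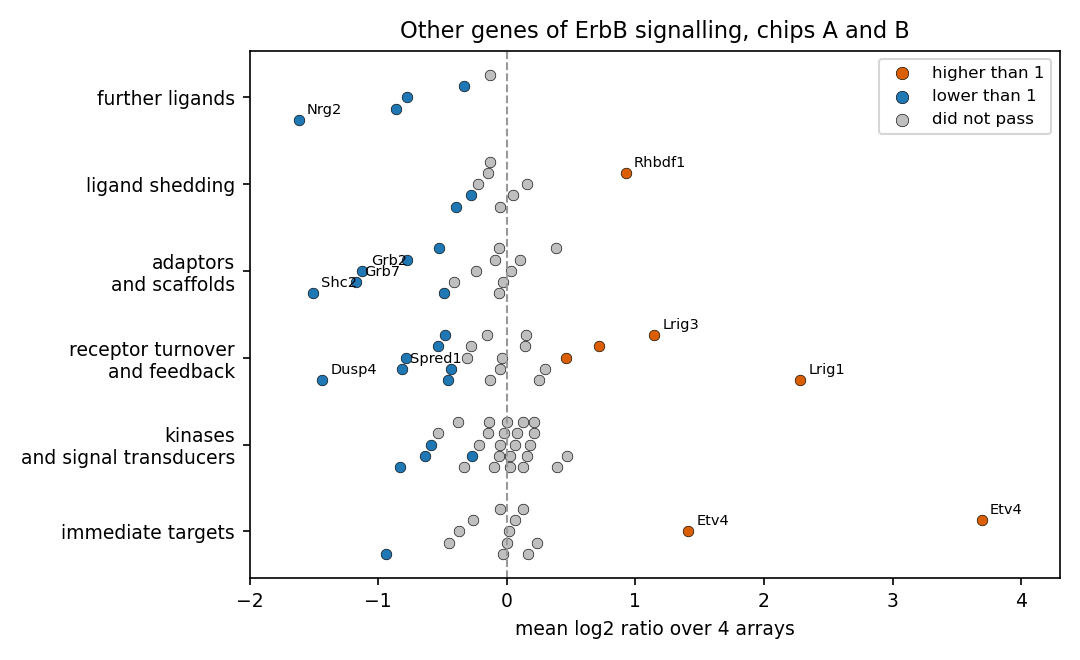
Mean log2 ratio over the 4 arrays of a chip for 91 probe sets of other genes of ErbB signalling, grouped by role, with chips A and B together and probe sets coloured by the limma call. Lrig1 at 2.28 and Etv4 at 3.69 stand at the right, and the 5 probe sets of further ligands lie left of 0, 1 of them without passing.

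Other genes of the pathway were taken from a list of 67, of which 55 were measured by 91 single-gene probe sets. Of these probe sets 7 were higher and 24 lower. On chip A 5 of 61 were higher (8.20%), against 9.21% of the chip, and 18 were lower (29.5%), against 30.1%. On chip B 2 of 30 were higher (6.67%), against 5.08% of the chip, and 6 lower (20.0%), against 27.1%. The shares of the list were near those of the chips.

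Genes of receptor turnover and feedback, of which some act on the receptors and some further downstream, held 4 of the higher probe sets, all on chip A. There 4 of 13 probe sets were higher and 4 lower (30.8% each), against 9.21% higher and 30.1% lower over the chip. Lrig1, which encodes a transmembrane protein that lowers ErbB receptor levels, had ratios of 5.20, 3.95, 5.37 and 5.09, high on all arrays and lowest in replicate 2 as Egfr was. Its mean log2 ratio was 2.28 ± 0.20 (SD, n = 4, 95% interval 2.04 to 2.53, limma adjusted p = 0.000102). Its relative Lrig3 had 2.37, 2.43, 3.04 and 1.37 on chip A (1.15 ± 0.49, limma adjusted p = 0.00706), and -0.05 ± 0.06 on its chip B probe set. The other 2 were Spry2, a feedback inhibitor of receptor tyrosine kinase signalling, at 0.72 ± 0.22 (limma adjusted p = 0.0037), and the ubiquitin ligase gene Cblb at 0.46 ± 0.31 (0.0424 by limma, adjusted), both named after their values were seen. Over both chips 7 of the group's 21 probe sets were lower (33.3%), beside 30.1% of chip A and 27.1% of chip B. They included Dusp4, a MAP kinase phosphatase gene, with low, even ratios of 0.359, 0.381, 0.382 and 0.356 (-1.44 ± 0.05, limma adjusted p = 0.000102), and Spred1, an inhibitor of Ras signalling, at -0.82 ± 0.37 on chip B (limma adjusted p = 0.0169). The Spred1 call was lost without replicate 2, 3 or 4 (limma adjusted p from 0.057 to 0.0706).

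Of 5 probe sets for 3 further ligand genes, 4 were lower, all of Nrg2 and Ereg, and 0 higher in limma (0 also at an unadjusted p under 0.05), beside the 30.1% of chip A and 27.1% of chip B that were lower. Nrg4 did not pass, at -0.13 ± 0.06 (limma adjusted p = 0.107). The lowest was a chip B probe set of Nrg2, a second neuregulin gene, at 0.322, 0.323, 0.329 and 0.330 (-1.62 ± 0.02, limma adjusted p = 5.9e-05). Its ratios were again low and even, with the limit given above. Among genes of ligand shedding 1 of 9 probe sets was higher (11.1%) and 2 were lower (22.2%), beside 9.21% and 30.1% over chip A and 5.08% and 27.1% over chip B. The higher one was of Rhbdf1, an inactive rhomboid that escorts the sheddase Adam17, with 1.40, 1.78, 2.11 and 2.46 (0.92 ± 0.35, limma adjusted p = 0.00512).

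Adaptors and signal transducers were lower or did not pass. Of 15 adaptor and scaffold probe sets 6 were lower (40.0%) and 0 higher in limma, with 1 higher at an unadjusted p under 0.05. Of 27 probe sets for kinases and signal transducers 4 were lower (14.8%) and 0 higher, again with 1 higher at an unadjusted p below that limit. Over all probe sets 30.1% of chip A and 27.1% of chip B were lower, and 9.21% and 5.08% higher. The lower shares of the adaptors and the kinases thus lay on either side of those of the chips. The lowest adaptors were Shc2 on chip B at -1.51 ± 0.02 (limma adjusted p = 5.9e-05) and Grb7 at -1.18 ± 0.06 (0.000138 by limma, adjusted). Both had low, even ratios, which do not by themselves show less transcript. The other Shc2 probe set, on chip A, stood at -0.03 ± 0.14 (limma adjusted p = 0.782). The 3 probe sets of Grb2, the adaptor that joins receptors to Ras activation, disagreed in sign. They stood at -1.12 ± 0.38 (limma adjusted p = 0.00349), at -0.53 ± 0.06 (0.00194 by limma, adjusted) and at 0.38 ± 0.31 with all 4 arrays above 1 (0.0707 by limma, adjusted).

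Of the immediate targets 2 of 14 probe sets were higher (14.3%) and 1 lower (7.14%). The chips had 9.21% (A) and 5.08% (B) higher, and 30.1% and 27.1% lower. Both higher probe sets were of Etv4, a transcription factor gene induced by receptor tyrosine kinase signalling, with ratios of 12.3, 11.5, 15.1 and 13.1 on one chip B probe set (3.69 ± 0.17, limma adjusted p = 5.9e-05) and 2.60, 1.96, 3.71 and 2.66 on the other (1.41 ± 0.38, limma adjusted p = 0.00263). On both the lowest array was that of replicate 2 and the highest that of replicate 3, as on the higher Egfr probe sets. The higher probe sets of Lrig3, Rhbdf1, Spry2 and Cblb were instead lowest in replicates 4, 1, 3 and 3. With only 4 arrays, a shared order does not tie a gene to Egfr. The lower probe set was of Fos, at -0.94 ± 0.06 (limma adjusted p = 0.000246), again with low, even ratios. The other Fos probe set stood at 0.07 ± 0.19 (limma adjusted p = 0.608). The rest of the group did not pass, among them Etv5, at 0.02 ± 0.40 and -0.05 ± 0.33, and Etv1, from -0.0002 to 0.23. Fos, Etv5 and Etv1 were named after their values were seen. Etv4 is also a target of FGF receptors, so its ratio does not assign it to ErbB signalling.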

How the data were processed

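Total RNA was extracted with a Qiagen kit, labelled with biotin and hybridized to 2 array types, per the labels' protocols. The submitters' processing notes name RMA and give no version of it. The authors deposited linear ratios to a reference not given in the sources used here, with array medians from 0.888 to 0.967. An earlier dataset that the series text points to was not analysed here.

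Ratios were put on the log2 scale with no pseudocount and tested per chip with limma 3.58.1 in R 4.3.3 (an intercept, eBayes, two-sided), leaving out 57 control probe sets a chip. Gene names came from the platform annotation, where 12783 tested probe sets of chip A and 7564 of chip B had 1 gene. The code was tested on simulated data. Replicates are biological per the labels, and p-values measure only their spread. The 4 arrays a chip limit the precision. The members, gene lists and named genes (every member probe set, and the 3 highest and 3 lowest called pathway probe sets a chip) were chosen with earlier results of these data known. Alternatives were array centring, a trended robust prior, a fold of 1.5, other sets of tested probe sets, and leaving out each replicate.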

Additional observations from a re-analysis of the deposited data

Results flagged for a closer look

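On 5 of the 20 family probe sets 1 array stood apart from the other 3 by Dixon's criterion, which chance meets in about 1 of 20 groups. Egfr 1370830_at had 3.58 in replicate 2, below its other arrays. Hbegf had 1.12 in replicate 2, above its others. Tgfa 1387450_at had 1.64 in replicate 4, and the Tgfa probe set of chip B was also highest there. Btc had 1.503 and Nrg1 1370607_a_at 1.53 in replicate 1, each against values below 0.9 in the other arrays. The causes were not tested.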

How the results depend on the processing

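Over 10 alternatives for each of the 20 family probe sets, 190 of 200 recomputed results stayed on the same side of the test, 6 lost the call, 4 gained one and 0 turned round in sign with a call. The calls of Egfr 1370830_at and 1381145_at, Erbb2, Erbb3, Areg and the 3 lower Nrg1 probe sets held in all 10. With a required fold of 1.5 Erbb3 and Areg were near the limit (limma adjusted p = 0.0479 and 0.0348). None of the 10 alternatives addressed the low, even ratios that also occurred among bacterial controls, so that limit stays for the lower calls. Of the lost calls 5 were of Erbb4, 4 of them given with its values above and 1 with a required fold of 1.5 (limma adjusted p = 1), and 1 was of Egf with that fold. With that fold the counts were 355 higher and 1282 lower on chip A, 181 and 1656 on chip B, and 3 higher and 6 lower among the other pathway genes. With single-gene probe sets alone chip B had 289 higher and 2055 lower. Leaving out 1 replicate gave 1073 to 1343 higher and 3782 to 4292 lower on chip A, 556 to 860 and 3654 to 3771 on chip B, 4 to 4 higher and 5 to 7 lower in the family, and 6 to 8 higher and 18 to 20 lower in the pathway. Centring the arrays raised log2 ratios by about the chip median and gave 1878 higher and 3689 lower on chip A. No paired analysis was possible because no groups were compared. Each test sets 1 group of 4 arrays against a ratio of 1, where a term per replicate would leave no residual spread, and 0 member probe sets lay on both chips. Signal over background is unknown, since the files hold ratios.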
